A study of Drosophila melanogaster with 399 samples.

Results

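The nuclear genes for oxidative phosphorylation were followed through fly embryogenesis and across an RNAi screen of transcription factors. The members were the 74 gene symbols that begin with ND-, COX and a digit, UQCR- or ATPsyn, of 17612 symbols in the count files. They comprised 40 genes of complex I, 8 of complex III, 11 of complex IV and 15 of complex V. All 74 matched a protein-coding gene of the annotation by symbol, and 16 of them carried the ending L, which marks a paralog of another subunit gene. The members lay on every large chromosome arm: 14 each on 2L and 2R, 16 each on 3L and 3R, 12 on X and 2 on chromosome 4.

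Oxidative phosphorylation takes place in the inner mitochondrial membrane. Complex I (NADH dehydrogenase), complex III (the cytochrome bc1 complex) and complex IV (cytochrome c oxidase) pass electrons to oxygen and pump protons, and complex V (ATP synthase) uses the returning protons to make ATP. The mitochondrial genome encodes a few hydrophobic core subunits, and all the other subunits are encoded in the nucleus. The early fly embryo inherits mitochondria and these transcripts from its mother, and muscle is among the tissues that use oxidative phosphorylation most.

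The RNA came from whole Drosophila melanogaster embryos in which 45 transcription factors were knocked down one at a time. In all, 399 libraries were analysed, 271 of RNAi embryos and the rest of control embryos. By the study's general description, RNAi embryos came from females with da-Gal4, a driver active maternally and in all zygotic tissues. The males carried a UAS short hairpin (a TRiP Valium20 line), and each factor was targeted by a single hairpin. In 19 of the 21 control sets the males carried a hairpin against mCherry, a gene that flies lack. For E5 the control label gave only the driver, da-Gal4, and for twi it gave MTD-Gal4, a maternal driver, so their RNAi and control embryos differed in more than the hairpin target. Every control set had 2 libraries at 0-1.5 h and 2 at 16-18 h after egg laying, and most had 2 at a window between. The study treats both libraries of a group as biological replicates, and p-values measure the spread between them. Gene counts per library ranged from 13148430 to 167412388 (median 54799768). Levels are given as CPM, a gene's count relative to the library total, corrected with trimmed-mean (TMM) factors, and as shares of a library's gene counts, which are not scaled.

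The hairpins named below are shown because each result rests on 1 of them. They are the sense-strand target sequences of 21 bases, 5′ to 3′, as the study lists them, with no part capitalised.
ERR (3L): caagtccacacgactagcata
caup (3L): tacgattacgagtacgtttaa
CG33557 (X): ctgcacaaatacgagagcgaa
CG15696 (3R): agcgacgggagaagcgcgaaa

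Nearly all subunit genes without the ending L were abundant in control embryos at every stage. Leaving out the paralogs, ND-B8 and ND-MNLL, 56 members had window means between 26.0 and 1506 CPM per kb of exon. At 16-18 h ATPsynC, the rotor ring subunit of ATP synthase, was highest at 1506 CPM per kb, followed by the catalytic subunit ATPsynbeta at 1235. The highest of complex IV was COX5A (633 CPM per kb), of complex I ND-MLRQ (579), whose human counterpart is now counted with complex IV, and of complex III UQCR-14 (549). Over the 42 libraries of that window UQCR-14 ranged from 290 to 880 CPM per kb and COX5A from 275 to 947, so these leaders of complexes I, III and IV overlapped widely. UQCR-14 is fully covered by CG32576 on the other strand, which stood at 12.0 CPM against 288 CPM for UQCR-14 (medians at 16-18 h).

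**Figure D1:**
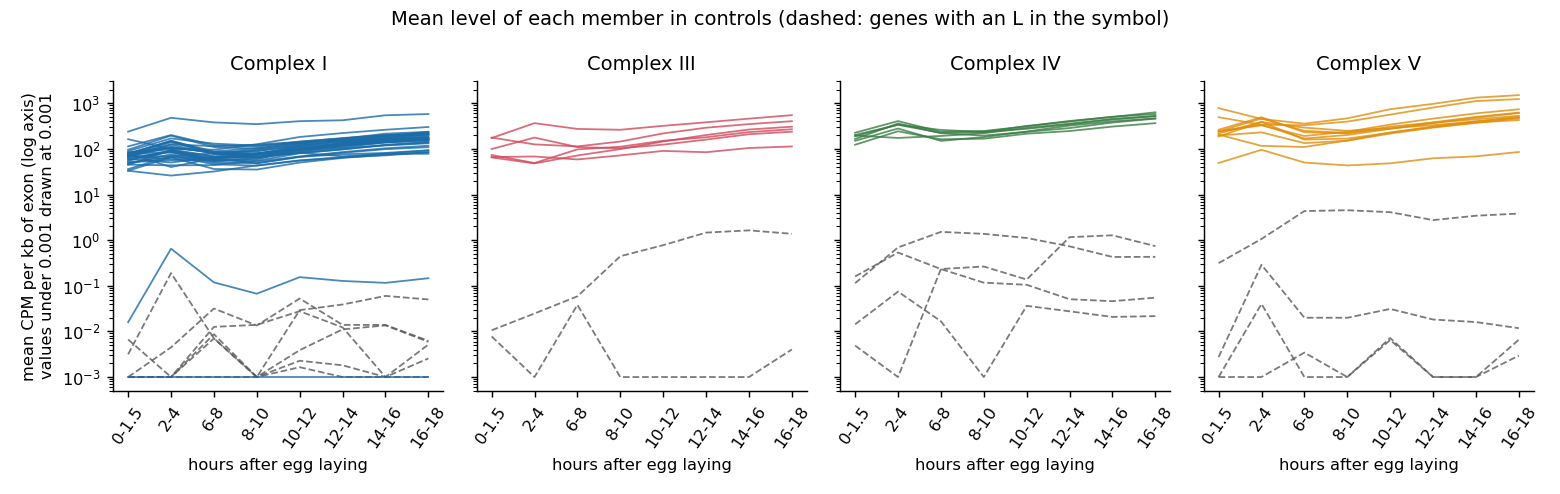
Mean level of each member in control embryos, in CPM per kb of exon on a log axis, against the sampling window, with 1 line per gene and dashed lines for the 16 paralogs. Leaving out the paralogs, ND-B8 and ND-MNLL, 56 members lie between 26.0 and 1506 CPM per kb at all windows, while no paralog exceeds 4.52.

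The paralogs were close to silent. Their highest window mean was 4.52 CPM per kb, reached by ATPsynepsilonL at 8-10 h, and 12 of the 16 never reached a window mean of 1. COX5BL lies wholly antisense to Trmt6. At 16-18 h the lowest members of complexes I, III, IV and V, leaving aside ND-MNLL, were ND-24L, UQCR-14L, COX5BL and ATPsynCF6L. ND-24L reached its highest window mean at 10-12 h, on 1 count in 14 libraries. ATPsynbetaL had 54 counts over the 42 libraries at 16-18 h, against 6105435 for ATPsynbeta. COX4L and ND-51L1 gave 657 and 235 counts over those libraries. ND-B8, a complex I subunit without the ending, was also near 0 (142 counts over 42 libraries), and ND-MNLL had no count in any control library. The annotated ND-MNLL lies entirely within CG45089 on the same strand, so reads from it could not be assigned to it.

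Control embryos late in development held about 2 times the share of oxidative phosphorylation transcripts found at 0-1.5 h after egg laying. At 0-1.5 h the members took 0.723 to 1.25% of a library's counts (median 0.966%, 42 libraries). The share was 0.879% at 2-4 h (4 libraries), fell to a low of 0.719% at 6-8 h (8 libraries) and was 0.901% at 8-10 h (2 libraries). It then stood at 0.973% at 10-12 h (14 libraries), 1.37% at 12-14 h (10), 1.66% at 14-16 h (6) and 1.83% at 16-18 h (0.797 to 2.42%, 42 libraries). Both windows that every set holds overlapped over all libraries, but within each set the mean share at 16-18 h exceeded that at 0-1.5 h, in 21 of 21 sets. Some control sets stood apart from the others of their window. The set of TfAP-2 and scrt had 1.75 and 1.42% at 10-12 h, and that of zfh2, Sox102F and Hr3 had 0.904 and 0.846% at 12-14 h and 0.797 and 1.04% at 16-18 h. The medians from 2-4 to 14-16 h compare different control sets, so set and window are mixed in their order. In every set sampled at 6-8 h both libraries of that window were below both of the same set at 0-1.5 h. The set of CG9876 and Hr51 had 0.685 and 0.796% at 6-8 h and 1.64 and 1.29% at 12-14 h.

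**Figure D2:**
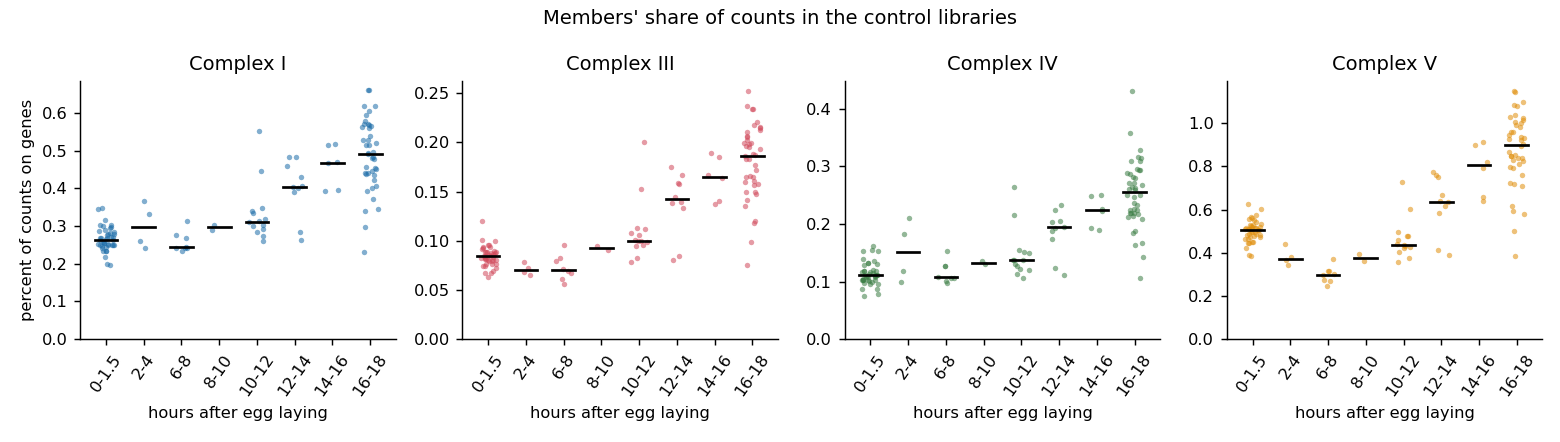
Percent of a library's gene counts taken by members of complexes I, III, IV and V (1 panel each) in all control libraries, by window in hours, with 1 point per library and a bar at each median. The medians of all 4 complexes are higher at 16-18 h than at 0-1.5 h, and that of complex V falls to 0.299% at 6-8 h before it rises.

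All 4 complexes contributed. From 0-1.5 h to 16-18 h the median share went from 0.264% to 0.493% for complex I, from 0.0843 to 0.187% for complex III, from 0.112 to 0.255% for complex IV and from 0.507 to 0.899% for complex V. Complexes I, III and IV were higher at 16-18 h in 21 of 21 sets and complex V in 20, the exception being the set of zfh2, Sox102F and Hr3. Complex V fell furthest in between, to 0.299% at 6-8 h, where complex I stood at 0.244%. In whole embryos a larger share of cells of one type and more RNA per cell cannot be told apart. The summed level of 10 somatic muscle genes ranged from 1.13 to 1758 CPM at 0-1.5 h and from 21448 to 62553 CPM at 16-18 h, and its part in the rise of the members was not tested.

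Gene by gene, the rise from 0-1.5 h to 16-18 h covered nearly every member tested. With edgeR's quasi-likelihood test, the control set as a block and Benjamini-Hochberg adjustment, 62 of the 64 members that passed the filter on low counts were higher at an adjusted p of at most 0.1 and a log2 difference of at least 0.5, and 1 was lower. Of all 13072 genes tested, 52.2% were higher and 32.8% lower. The median log2 difference was 1.33 for the members and 0.75 for all genes. Other scalings moved both medians together, to 1.83 and 1.24 with DESeq2-type size factors (RLE) and to 0.96 and 0.39 with library sizes alone, so the distance of 0.58 between them is the steadier figure. It was 0.60 and 0.57 under those scalings. By complex, 33 of 34 members tested rose for complex I (median 1.25), 7 of 7 for complex III (1.65), 9 of 10 for complex IV (1.49) and 13 of 13 for complex V (1.30).

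**Figure D3:**
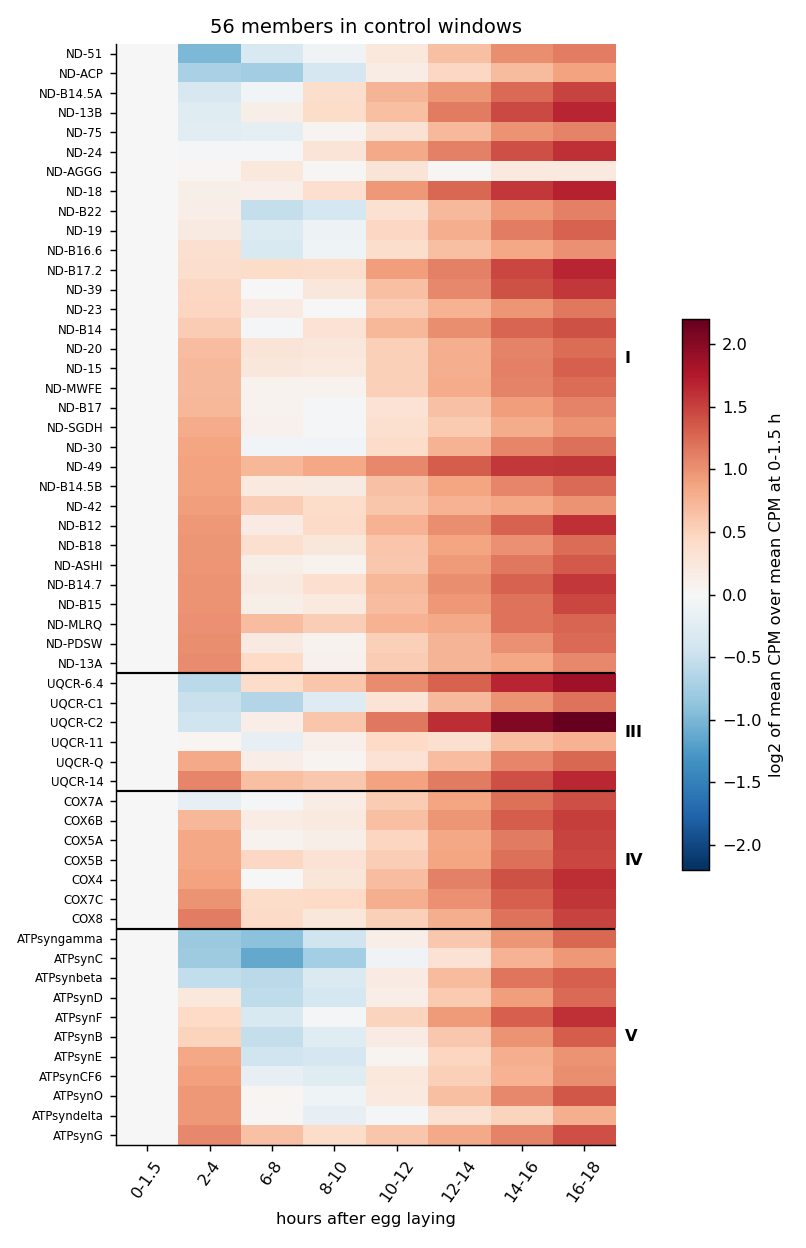
Log2 of each window's mean CPM over the mean at 0-1.5 h in control embryos, for the 56 abundant members (rows, by complex) and the windows in hours (columns). Most rows are lower at 6-8 h than at 2-4 h and highest at 14-16 or 16-18 h, with ND-AGGG as the row that changes least.

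Among abundant subunits the largest rise was in UQCR-C2, a core protein of complex III. It measured 53.5 to 188 CPM at 0-1.5 h (median 109) and 220 to 852 CPM at 16-18 h (median 520), with no overlap between the windows (log2 difference 2.21, SE 0.06, adjusted p 2.05e-59 with edgeR). ATPsynbeta, UQCR-14, COX5B, COX7C, COX8, ND-23, ND-39, ND-49, COX6AL and UQCR-11L were the other members with every 16-18 h library above every 0-1.5 h library, 11 in all with UQCR-C2. ATPsynC, the most abundant member, went from a median of 1454 CPM (1172 to 1917) to 2797 CPM (1443 to 4025), with overlapping ranges (log2 difference 0.93). Within sets, 59 members were higher at 16-18 h in all 21.

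The exception among the abundant members was ND-AGGG, an accessory subunit of complex I (3L:24976254-24977118, FBgn0058002). It ranged from 11.5 to 86.5 CPM at 0-1.5 h (median 48.4) and from 17.8 to 102 CPM at 16-18 h (median 59.6). The log2 difference was 0.21 (SE 0.07), under the size needed for a call, and in 6 of the 21 sets the gene was lower at 16-18 h. ND-AGGG also varied most among control libraries of 1 stage: its coefficient of variation at 16-18 h was 35.8%, against a median of 23.7% over the 56 members. ND-49, a core subunit of complex I encoded on chromosome 4, varied least, with 232 to 388 CPM, while ATPsynbeta, the other member on that chromosome, had a coefficient of 18.5%.

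The largest fold changes belonged to scarce paralogs. UQCR-11L had 12 counts over 42 libraries at 0-1.5 h and 1250 at 16-18 h (log2 difference 6.59, SE 0.25), while UQCR-11 rose by 0.76. COX6AL had 7 and 814 counts (6.30, SE 0.27), ND-51L1 22 and 235 (3.79, SE 0.34) and ATPsynepsilonL 415 and 3977 (3.68, SE 0.17). ND-B8 had 19 and 142 counts (2.88, SE 0.40). COX7AL was the one member that fell, from 256 counts to 66 (log2 difference -1.49, SE 0.32, adjusted p 9.1e-06 with edgeR). All 6 stayed under 2 CPM on average at 16-18 h. Fitted folds of genes with so few counts depend on the offset that the model adds, and the counts are given for that reason.

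Between 0-1.5 and 6-8 h the calls on the TMM scale were mostly of higher members and then mostly of lower ones, while the unscaled share of the members was lower at 2-4 h than at 0-1.5 h in 2 of 2 sets. At 2-4 h against 0-1.5 h, 40 of 64 members were higher (37.4% of all genes) and 5 were lower (16.9%), and at 6-8 h against 2-4 h 4 were higher (29.1%) and 37 lower (18.7%). Only 4 libraries from 2 sets cover 2-4 h, and the count of 40 became 11 with the mCherry sets alone (7 lower) and 19 with library sizes alone (11 lower). COX8, a small subunit of complex IV, measured 66.8 and 66.7 CPM at 0-1.5 h and 92.2 and 142 CPM at 2-4 h in the mCherry set, and 89.6 and 87.5 against 237 and 267 CPM in the MTD-Gal4 set. ATPsynG, subunit g of ATP synthase, went from 103 and 104 CPM to 152 and 248 CPM in the first and from 139 and 158 CPM to 347 and 475 CPM in the second. For both genes the values at 2-4 h lay above those at 0-1.5 h in each set, with the wider gap in the MTD-Gal4 set.

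The 5 that were lower at 2-4 h were ATPsynC, ATPsyngamma (the central stalk of ATP synthase), ND-51 (a core subunit of complex I), ND-ACP (the mitochondrial acyl carrier protein) and UQCR-6.4. ATPsynC went from 1309 and 1451 CPM to 1015 and 793 CPM in the mCherry set and from 1497 and 1332 CPM to 735 and 835 CPM in the MTD-Gal4 set. ND-51 went from 111 and 121 CPM to 85.6 and 72.9 CPM, and from 106 and 108 CPM to 40.0 and 55.4 CPM. Of the members without the ending L, those higher at 2-4 h had a median exon length of 802 bases (35 genes), those lower 1460 bases (5 genes) and those not called 871 bases (17 genes). Transcript length was not entered in any fit, and its part was not tested.

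From 8-10 h on the calls by edgeR went in 1 direction. At 8-10 h against 6-8 h 1 member was higher and 0 lower (5.53% and 4.85% of all genes), with 3 at an unadjusted p under 0.05 and 1 higher by DESeq2. At 10-12 h against 8-10 h, 20 were higher and 0 lower (3.70% and 1.32% of all genes), with 51 at an unadjusted p under 0.05. DESeq2 gave 26 higher, and edgeR gave 0 once the libraries of each set were summed, since 8-10 h rests on 1 set. At 12-14 h against 10-12 h, 12 were higher and 0 lower (19.9% and 16.3% of all genes), and 35 were higher with DESeq2. Without the 2 control sets that stood apart, 16 were higher at 10-12 h, 19 at 12-14 h and again 62 from 0-1.5 h to 16-18 h. The last 2 steps gave 0 calls of members with edgeR, where 7.37% and 8.81% of all genes were called higher and lower at 14-16 h and 10.8% and 7.7% at 16-18 h, and with DESeq2 5 higher at 14-16 h and 1 lower at 16-18 h. Their member medians were 0.22 and 0.20, against -0.12 and 0.08 for all genes.

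The other genes of the pathway are given from lists of subunits and cofactors outside the symbol rule. All 6 genes of complex II (succinate dehydrogenase) were higher at 16-18 h than at 0-1.5 h (median log2 difference 1.12), as were 7 of 7 further subunits of complexes III, IV and V with other symbols (median 1.38), among them blw, the alpha subunit of ATP synthase (0.95). Both cytochrome c genes rose, Cyt-c-p by 2.23 and Cyt-c-d by 4.52. The 13 protein-coding transcripts of the mitochondrial genome were also all higher (median 1.39). Of 9 genes of the tricarboxylic acid cycle, 6 were higher and 0 lower.

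The genes that assemble the complexes or regulate them were called in both directions, where 52.2% of all genes were higher and 32.8% lower. Of 10 assembly factors listed 3 were found, of which 0 were higher and 2 lower. Surf1 (-1.83) and Scox (-1.27) were the lower ones, and both serve cytochrome c oxidase. Of 8 regulators, 2 were higher and 3 lower. TFAM, which packages and transcribes mitochondrial DNA, differed by -1.21. Ets97D, the fly GABPA counterpart, differed by -2.06 and srl, the PGC-1 counterpart, by -1.19. ERR, the estrogen-related receptor, was higher by 0.76 and clu by 0.53.

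RNAi of a transcription factor seldom changed the members. A comparison set the RNAi libraries of 1 factor and window against the 2 matching control libraries, with the same test, for 45 factors at 3 or 4 windows each. Of 8051 member tests, 68 (0.845%) were called higher and 118 (1.47%) lower, against 2.45% and 1.82% over all genes and comparisons. In 116 comparisons 0 members were called by edgeR, with 351 member tests at an unadjusted p under 0.05, and in 16 of these DESeq2 called at least 1. The median log2 difference of the members lay within 0.25 of 0 in 111 comparisons. DESeq2 called 124 member tests higher and 97 lower. Members without the ending L differed little from each other: the standard deviation of their log2 differences within a comparison had a median of 0.11, against 0.57 for all genes, and was the smaller in 136 comparisons, all but dmrt99B at 16-18 h. The members are far more abundant than the median gene, and the difference in spread was not adjusted for that.

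**Figure D4:**
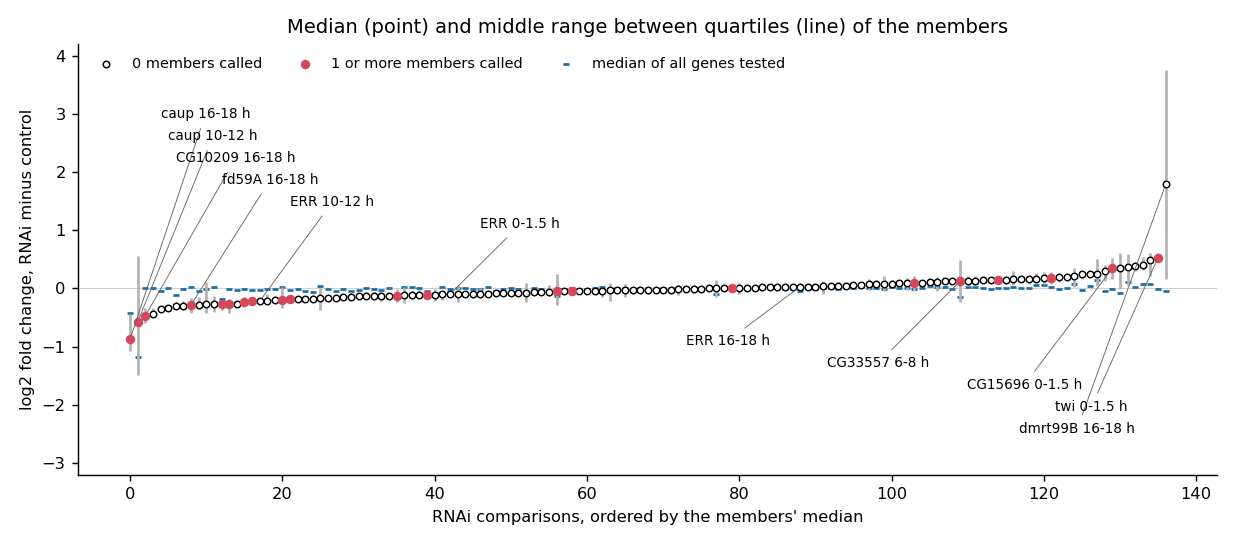
Median log2 difference of the members (RNAi over matching control) for every comparison, in rising order, with a line for the range between the quartiles of the members, a filled point where 1 or more members were called and a dash at the median of all genes. Most medians lie within 0.25 of 0, and the largest, dmrt99B at 16-18 h (1.79), comes from 1 of 2 RNAi libraries and has 0 members and 0% of all genes called by edgeR.

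Calls were concentrated in few comparisons, and 148 of the 186 came from caup at 10-12 and 16-18 h, CG10209 at 16-18 h, CG33557 at 6-8 h, twi at 0-1.5 h and CG15696 at 0-1.5 h. ERR was taken up first because ERR proteins are known in mammals as regulators of oxidative phosphorylation genes. In the fly embryo ERR is known for switching on genes of glycolysis.

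ERR RNA was reduced from mid-embryogenesis. It measured 27.2 and 27.2 CPM in RNAi embryos and 31.3 and 25.2 CPM in controls at 0-1.5 h, so the groups overlapped at this window. At 10-12 h it was 7.99 and 7.68 CPM against 23.3 and 24.7 CPM (log2 difference -1.62, SE 0.13, adjusted p 1.26e-04 with edgeR). At 16-18 h it was 11.7 and 10.4 CPM against 35.9 and 34.6 CPM (log2 difference -1.67, SE 0.14), both RNAi libraries below both controls, but edgeR's adjusted p was 0.172 and DESeq2's 2.15e-10.

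No member was called after ERR RNAi at any of the 3 windows, by edgeR. At 10-12 h 0.236% of all genes were called higher and 2.07% lower, and at 0-1.5 h and 16-18 h 0% of all genes were called in either direction. The members leaned downward together at that window: 58 of 59 tested had a negative log2 difference, with a median of -0.22 against -0.02 for all genes. In 37 of them both RNAi libraries were below both controls, 8 had an unadjusted p under 0.05, and the lowest adjusted p was 0.317 (edgeR). Summed over the members, the RNAi libraries held 7660 and 8143 CPM and the controls 8342 and 9413 CPM. The groups did not overlap in this sum, though the upper RNAi and lower control library were close. The unscaled shares did overlap, at 0.734 and 0.849% in RNAi and 0.844 and 0.930% in control embryos.

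ATPsynG measured 144 and 158 CPM after ERR RNAi at 10-12 h and 179 and 215 CPM in controls (log2 difference -0.39, SE 0.15, adjusted p 0.320 with edgeR). The scarce paralogs UQCR-11L and COX4L had the lowest values, -0.74 and -0.53, on 17 and 53 RNAi counts. At the other end ND-49 and ATPsynbeta stood at -0.02 each, with overlapping libraries, and ATPsynepsilonL at 0.61 (2.22 and 2.02 CPM against 1.15 and 1.63 CPM). On data simulated from this comparison, 81 of 100 genes changed 2-fold were called, a figure that holds only for the spread set in the simulation. Apart from UQCR-11L, COX4L and ATPsynepsilonL, the members changed by less than the size needed for a call. Those paralogs missed a call on adjusted p (0.739, 0.681 and 0.409 with edgeR). The comparison at 16-18 h was not simulated, and there ERR RNA itself missed a call at -1.67. Leaving out RNAi replicate 2 gave 1 lower member.

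The downward lean was not seen at 16-18 h, when ERR RNA was still low. There the member median was 0.03, 17 of 59 were negative, and the sums were 14598 and 15031 CPM after RNAi against 13413 and 15948 CPM. Against the control libraries of the other sets, chosen after seeing the values, the medians were -0.24 at 10-12 h and -0.24 at 16-18 h. There 0 members were called by edgeR. Of all genes 0.0417% and 0.167% were called higher and lower at 10-12 h, and 0.0244% and 0.333% at 16-18 h. At 0-1.5 h against its own controls the median was -0.10 with 54 of 57 negative, at a stage when ERR RNA itself was not lower. The test of the difference between 10-12 and 16-18 h, as an interaction of RNAi and window, called 0 of 60 members (0 at an unadjusted p under 0.05, lowest adjusted p 0.865 with edgeR, 0 called by DESeq2), against 0.0343% of all genes. The median interaction was 0.30 for the members and 0.06 for all genes. Complex II, further subunits, both cytochrome c genes and the 13 mitochondrial transcripts also had 0 calls at 10-12 h. Their medians were -0.19, -0.22, -0.40 and 0.16 in that order, with 1 cytochrome c gene at an unadjusted p under 0.05. The only regulator called was ERR itself. The epidermis and cuticle genes had 1 call lower of 5 tested and the muscle genes 1 lower of 10.

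**Figure D5:**
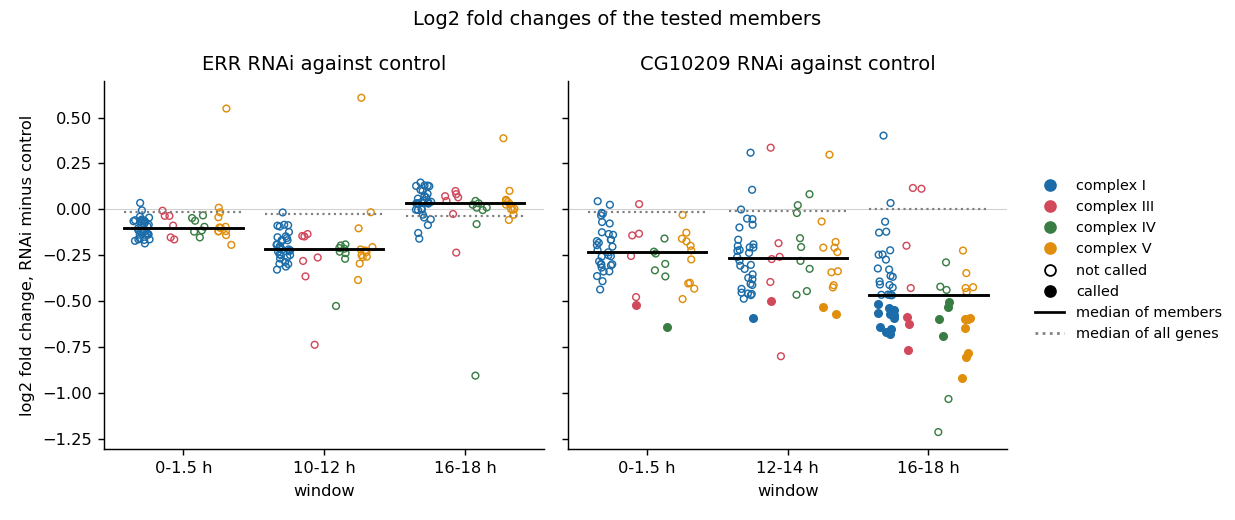
Log2 difference of each member (RNAi over matching control) at 3 windows for ERR and 3 for CG10209, with 1 point per member and filled points for called ones. ERR points lean below 0 at 10-12 h with 0 called, and most CG10209 points lie below 0 at all 3 windows with 2, 4 and 25 called lower.

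CG10209 RNAi gave the clearest one-way change at 16-18 h against its own controls. CG10209 RNA measured 4.91 and 6.12 CPM in RNAi and 13.5 and 11.3 CPM in control embryos (log2 difference -1.17, SE 0.17, adjusted p 0.00392 with edgeR). Of 60 members tested 25 were lower and 0 higher, against 11.9% and 12.6% of all genes, with a median of -0.47 against 0.00. DESeq2 called 22 lower. In 53 members both RNAi libraries were below both controls.

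Members of all complexes were among the 25: 11 of complex I, 3 of III, 4 of IV and 7 of V. ATPsynG fell most among the abundant ones, with 245 and 230 CPM after RNAi and 503 and 395 CPM in controls (log2 difference -0.92, SE 0.13, adjusted p 0.00374 with edgeR). ATPsynF, subunit f, had 309 and 298 CPM against 580 and 465 CPM (-0.78), and UQCR-Q, the ubiquinone-binding small subunit of complex III, 162 and 164 CPM against 302 and 252 CPM (-0.77). COX4 had 364 and 417 CPM against 673 and 587 CPM (-0.69). In each of these the RNAi libraries lay below the controls, and ATPsynepsilonL, with 1.26 and 1.07 CPM against 1.84 and 2.22 CPM (-0.81), was the one paralog called. Abundant members without a call included ND-49, with 302 and 314 CPM against 333 and 313 CPM (-0.07), and ATPsynbeta (-0.22). ND-AGGG went the other way without a call (0.40).

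The same direction was seen at the earlier windows. The share of counts was 0.775 and 0.750% after RNAi against 0.978 and 0.917% at 0-1.5 h, 1.27 and 1.25% against 1.65 and 1.58% at 12-14 h, and 1.52 and 1.63% against 2.33 and 2.16% at 16-18 h. At 0-1.5 h 2 members were called lower and 0 higher (1.23% and 0.761% of all genes), and at 12-14 h 4 lower and 0 higher (6.36% and 8.99%), with medians of -0.23 and -0.27. At 16-18 h the control libraries of this set were near the top of the 0.797 to 2.42% seen in all 42 control libraries. The RNAi libraries were inside that range. At 12-14 h these controls were also near the top of the control range (0.846 to 1.65%). At 0-1.5 h they lay near the control median of 0.966%, and the RNAi libraries near the bottom of the control range (0.723 to 1.25%). Against the control libraries of the other sets at 16-18 h, a comparison chosen after seeing the values, 0 members were called. Of all genes 2.74% were called higher and 1.31% lower there. The member median was -0.22 against -0.08 for all genes. Fer1 and Camta RNAi at 16-18 h, which share these controls, had 0 members called by edgeR, where 0.253% and 0.181% of all genes were called higher and lower for Fer1 and 1.59% and 1.51% for Camta. At an unadjusted p under 0.05 there were 0 and 2 members, and DESeq2 called 0 in both. Their shares were 2.18 and 2.17% and 2.35 and 2.30%. Without control replicate 1 the count of 25 became 14.

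Other RNAs moved with the CG10209 members. The mitochondrial large ribosomal RNA took 12.8 and 8.72% of counts after RNAi and 0.995 and 1.66% in controls at 16-18 h, and was also the higher in RNAi embryos at 0-1.5 h (5.34 and 5.02% against 0.551 and 1.14%) and at 12-14 h (7.78 and 8.97% against 1.72 and 0.930%). Over all control libraries it ranged from 0.284 to 16.8%. Of the 13 mitochondrial protein-coding transcripts 9 were higher, mt:Cyt-b by 3.20, and 4 lower, mt:ND6 by -2.25. Of 6 neuronal genes 4 were higher (median 0.79, summed 1490 and 1709 CPM after RNAi against 955 and 1021 CPM), as were 2 of 6 epidermis and cuticle genes, with 1 lower, and 2 of 4 midgut genes were lower and 1 higher. In Fer1 and Camta RNAi embryos this RNA took 1.93 and 3.66% and 1.86 and 1.37%. The part of these RNAs in the lower level of the nuclear members was not tested. Further nuclear subunits had 3 of 7 lower (median -0.41) and the cytochrome c genes 1 of 2 (median -0.58). Complex II had 0 of 5 called, with a median of -0.38, a range of -1.09 to -0.23 and 3 at an unadjusted p under 0.05.

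caup RNAi changed the members most, within a change of most of the transcriptome. caup encodes an Iroquois homeodomain protein. Its RNA measured 1.52 and 0.47 CPM in RNAi and 19.4 and 17.9 CPM in control embryos at 10-12 h, and 1.74 and 0.71 CPM against 12.3 and 14.2 CPM at 16-18 h. At 10-12 h 16 of 60 members were higher and 32 lower, against 35.4% and 49.5% of all genes, so the members were called about as often as other genes. Their median was -0.57, above that of all genes at -1.17. The scaling decides the sign of the member median here. With RLE it was 0.06, with 24 higher and 18 lower (39.1% and 43.3% of all genes). With library sizes alone it was -2.66, with 1 higher and 55 lower (17.5% and 68.8% of all genes). The member median stayed above that of all genes by 0.60 with TMM, 0.63 with RLE and 0.58 with library sizes alone. The unscaled share of the members was 0.223 and 0.220% in RNAi against 1.06 and 0.975% in control embryos.

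The summed levels of complex I and complex V parted in the caup libraries at 10-12 h on the TMM scale. In both complexes more members were called lower than higher. The summed level of complex I was 2113 and 2401 CPM after RNAi against 1643 and 1524 CPM, and that of complex V 1430 and 1449 CPM against 2210 and 2063 CPM. ND-AGGG had 76.4 and 91.3 CPM against 10.5 and 13.3 CPM (log2 difference 2.82), ND-42, an accessory subunit of complex I, 536 and 627 CPM against 138 and 129 CPM (2.12) and ND-13A 82.5 and 107 CPM against 29.8 and 27.3 CPM (1.73). UQCR-C2 had 31.2 and 12.8 CPM against 127 and 112 CPM (-2.44) and its partner core protein UQCR-C1 43.4 and 23.0 CPM against 182 and 164 CPM (-2.38). ATPsynC was lower too, with 229 and 181 CPM against 594 and 550 CPM. With library sizes alone ND-13A turned to -0.37, and without RNAi replicate 1 or without control replicate 2 the count of 16 higher became 10. COX6AL had 0 counts after RNAi and 19 in the controls, at least 1.59-fold lower by a floor of 3 counts per library.

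At 16-18 h 1 member was higher and 26 of 61 lower after caup RNAi, against 30.2% and 18.5% of all genes (medians -0.86 and -0.42). The count lower was 7 with RLE, 56 with library sizes alone and 3 at an adjusted p of 0.05. ND-AGGG was the one higher, with 37.3 and 39.2 CPM against 11.2 and 14.5 CPM (1.58), and was at -0.02 with library sizes alone. UQCR-C2 had 155 and 82.4 CPM against 306 and 314 CPM (-1.39) and UQCR-C1 219 and 106 CPM against 383 and 396 CPM (-1.26). ND-51L1 had 0 counts against 31, at least 1.43-fold lower by the same floor. The number of calls depended on the library left out, for members and for all genes alike. The member median stayed below that of all genes each time. It was -0.89 against -0.39 without control replicate 1 and -0.82 against -0.42 without control replicate 2. Without RNAi replicate 1 it was -1.13 against -0.65, and without RNAi replicate 2 -0.53 against -0.20.

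The caup libraries also differed from their controls in stage markers. Of 6 maternal RNAs 5 were higher at 10-12 h and 6 at 16-18 h, with summed levels of 4298 and 4779 CPM against 431 and 472 CPM at 10-12 h. The 10 muscle genes were all lower at 10-12 h (summed 552 and 1918 CPM in RNAi, 7958 and 8180 CPM in control embryos), as were the 6 neuronal genes. The 1373 genes tested at 10-12 h that appear late in control embryos had a median of -2.91, and -1.12 at 16-18 h. The mitochondrial large ribosomal RNA took 8.69 and 8.45% of counts against 0.941 and 1.44% at 10-12 h, and all 13 mitochondrial protein-coding transcripts were higher at both windows. The part of embryo stage in the change of the members was not tested.

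CG33557 RNAi at 6-8 h had members called in both directions, about as often as genes overall. CG33557, which encodes a basic helix-loop-helix protein, had 1 count over both RNAi libraries and 88 over both controls. Of 58 members tested 14 were higher and 6 lower, against 26.3% and 11% of all genes, with a median of 0.13 against -0.15. ND-AGGG had 52.4 and 46.0 CPM after RNAi and 26.0 and 23.2 CPM in controls (log2 difference 1.00). ND-42 had 390 and 405 CPM against 219 and 182 CPM (0.99) and ATPsynCF6, coupling factor 6 of ATP synthase, 295 and 324 CPM against 168 and 152 CPM (0.95). COX7A had 86.1 and 94.9 CPM against 125 and 144 CPM (-0.57), UQCR-C2 96.7 and 97.7 CPM against 144 and 144 CPM (-0.57) and UQCR-C1 132 and 151 CPM against 205 and 210 CPM (-0.55). In all 6 genes the RNAi and control libraries were apart. Without RNAi replicate 2 there were 7 higher and 12 lower members, and without control replicate 2 there were 3 lower.

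The sign of the member median depended on scaling, and the sign of some named genes on the controls used. The unscaled share was lower after CG33557 RNAi, 0.624 and 0.699% against 0.800 and 0.936%. With library sizes alone 0 members were higher and 25 lower, against 12.3% and 40.2% of all genes. The member median was then -0.45 against -0.72 for all genes. It stayed above that of all genes by 0.28 with TMM, RLE and library sizes alone. Against the control libraries of the other sets at 6-8 h 20 were higher and 1 lower, against 24.3% and 11.3% of all genes. There the member median was 0.41, while ND-AGGG turned to -0.34 and UQCR-C2 to 0.01. Of 6 maternal RNAs 3 were higher and the late genes had a median of -0.46. The higher members without the ending L had a median exon length of 767 bases and the lower ones 1348 bases, against 849 bases over the 56 tested.

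After twi RNAi at 0-1.5 h the members leaned upward together. twi, the mesoderm determinant, measured 4.38 and 3.03 CPM in RNAi and 6.37 and 8.27 CPM in control embryos (log2 difference -0.98, SE 0.32, adjusted p 0.112 with edgeR), short of a call. All 56 members tested had a positive log2 difference with a median of 0.53 against 0.00 for all genes, and 15 were called higher and 0 lower against 4.34% and 6.55% of all genes. In 50 members both RNAi libraries were above both controls. UQCR-6.4 had 63.5 and 103 CPM against 44.1 and 36.8 CPM (1.04), ND-B14.5A 45.5 and 61.0 CPM against 28.8 and 27.4 CPM (0.92) and ND-13B 59.6 and 79.1 CPM against 41.4 and 35.7 CPM (0.85). RNAi replicate 2 was the higher library in all 3. Of 9 somatic muscle genes tested 4 were higher and 0 lower (median 2.80, summed 13.2 and 16.7 CPM against 1.54 and 3.06 CPM), and their part in the lean of the members was not tested.

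That count rested on single libraries, as leaving 1 out gave between 0 (without RNAi replicate 2) and 29 (without RNAi replicate 1) higher members, and 8 without control replicate 2. An adjusted p of at most 0.05 left 1, and DESeq2 called 29. Against the control libraries of the other sets 49 were higher and 1 lower, where 19.3% and 29.7% of all genes were called. The control embryos of this comparison were labelled MTD-Gal4. Whether the twi RNAi embryos carried the same driver was not established, so a difference of driver cannot be told apart from RNAi. At 2-4 h 2 members were higher and 2 lower (18.5% and 14.7% of all genes, median -0.19), and at 16-18 h 0 were called (0.579% and 1.4%), 0 by DESeq2 and 0 at an unadjusted p under 0.05, with a median of 0.41.

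CG15696 at 0-1.5 h was a comparison of 1 RNAi library with 2 controls, whose single library was assumed to vary as the controls do. The target gave 4 counts after RNAi and 4 over both controls, too few to test, so a knockdown was not detectable at this depth. Of 58 members 13 were higher and 0 lower, against 5.01% and 2.04% of all genes. UQCR-11, a small subunit of complex III, had 236 CPM against 118 and 75.1 CPM (1.29), ND-AGGG 116 CPM against 60.0 and 46.5 CPM (1.13) and ND-MLRQ 241 CPM against 141 and 121 CPM (0.88). The member median was 0.35 against -0.01 for all genes, and 0.25 against -0.12 in one fit of all libraries of the window. With the control libraries of the other sets it was -0.07 against -0.18. With its own 2 controls the late genes had a median of -1.75.

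Across all the RNAi comparisons ND-AGGG was called most often, 7 times higher and 4 times lower. It was higher with caup RNAi at 10-12 and 16-18 h, fd59A at 16-18 h (1.53), esn at 0-1.5 h (1.32), CG15696 at 0-1.5 h, CG33557 at 6-8 h and Hr51 at 6-8 h (0.83). It was lower with repo at 14-16 h, HLH54F at 0-1.5 h (-0.65) and 8-10 h (-0.74) and TfAP-2 at 16-18 h (-0.66). UQCR-C2 followed with 2 calls higher, both with twi (0.58 at 0-1.5 h and 0.86 at 2-4 h), and 6 lower. The caup and fd59A comparisons at 16-18 h share their control libraries, in which ND-AGGG had 11.2 and 14.5 CPM as scaled with caup. Over all 42 control libraries at 16-18 h, scaled together, it ranged from 17.8 to 102 CPM (median 59.6). Another 8 members were called in 5 comparisons each: ATPsynG, COX7A, COX8, ND-18, ND-24, ND-B12, UQCR-11 and UQCR-6.4. Of the 64 members tested in at least 1 comparison, 62 were called at least once. How often other genes were called over the comparisons was not worked out, so these counts per gene have no background. In caup at 10-12 h alone, 35.4% of all genes were called higher and 49.5% lower.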

How the data were processed

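RNA was sequenced from poly(A)-selected, stranded libraries of whole embryos. Per the labels, the authors aligned reads with STAR 2.7.3a and counted them per gene with HTSeq 0.12.4, and the deposited files hold raw gene counts per library on the Release 6 genome. The labels also name DESeq2 1.24.0. Whether strand was used in counting is not given in the sources used here. Lines that name no gene (5 per file, 3.52 to 20.7% of each library) were left out. A gene inside another on the same strand loses its reads under such counting.

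The groups came from the labels. Genes were filtered with filterByExpr (minimum count 10), scaled by TMM and tested with the quasi-likelihood test of edgeR 4.0.16 (R 4.3.3), with Benjamini-Hochberg adjustment over all genes left. A call needed an adjusted p of at most 0.1 and a log2 fold change of 0.5 or more in size. All control libraries entered 1 fit with window and control set, and each RNAi group was fitted with its own 2 controls. DESeq2 1.42.0, RLE scaling, library sizes, no filter, left-out libraries and other controls were the alternatives. Tested on simulated data, edgeR called 87 of 100 genes changed 2-fold in the CG10209 comparison at 16-18 h, and 99 of 100 in that of the controls at 16-18 and 0-1.5 h.

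Late genes were the 1417 genes with at most 0.5 CPM at 0-1.5 h and at least 5 CPM at 16-18 h in controls. Counting error covers reads, not independent molecules, as the libraries have no molecular identifiers. The members, the lists and the tests were chosen with earlier results of these data known. Named members were the highest and lowest of each complex per kb, the 5 largest increases and decreases in the time course, the paralogs, the 3 highest and lowest after ERR RNAi, the 3 largest called increases and decreases in the 6 RNAi comparisons with most calls, and the 5 members called most often (10 with ties). Members named beside these were chosen after their values were seen.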

Additional observations from a re-analysis of the deposited data

Results flagged for a closer look

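The share of counts taken by the members after caup RNAi lay on different sides of the controls at different windows, with both RNAi libraries on the same side each time. At 0-1.5 h it was above, at 1.05 and 1.11% against 1.01 and 1.02%. At 10-12 h it was below, at 0.223 and 0.220% against 1.06 and 0.975%, and at 16-18 h also below, at 0.542 and 0.236% against 1.87 and 1.93%. The difference between the windows was not tested. Among 20 groups checked for a single library far from the others, 0 stood out by that measure. These were the members or their complexes in control windows of 4 to 10 libraries. No RNAi group was checked this way.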

How the results depend on the processing

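The rise from 0-1.5 to 16-18 h kept 59 to 67 members higher and 1 lower under every alternative run. Precision is limited by the 2 libraries of each group, and by counts for the paralogs. The cause of the shifts below was not tested.

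At 2-4 h, 19 members were higher and 11 lower with library sizes alone, 11 were higher with the mCherry sets and 9 lower without a filter. At 6-8 h library sizes alone gave 7 higher and 16 lower. At 10-12 h the count higher was 13 (RLE), 3 (library sizes), 4 (no filter), 0 (summed libraries) and 6 (adjusted p of 0.05). At 12-14 h it was 35 (RLE, DESeq2), 7 (library sizes) and 19 (without the 2 control sets that stood apart), with 1 lower without a filter or with summed libraries. At 14-16 h it was 5 (RLE, DESeq2) and 2 (no filter, 1 lower), and at 16-18 h DESeq2 gave 1 lower.

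Over all RNAi comparisons, 107 (no filter) and 124 (DESeq2) calls were higher, and 75 (RLE) and 77 (adjusted p of 0.05) lower. For caup at 10-12 h 1 (library sizes) and 10 (one fit of the window) were higher, and 18 (RLE), 19 (DESeq2) and 55 (library sizes) lower, with 10 to 15 higher and 24 to 35 lower when a library was left out. For caup at 16-18 h 0 (library sizes) and 2 (other control sets) were higher, and 7 (RLE), 56 (library sizes) and 3 (adjusted p of 0.05) lower, with 0 to 4 and 0 to 40 when a library was left out. Leaving one out gave 0 to 1 higher and 14 to 31 lower for CG10209, 7 to 17 and 3 to 12 for CG33557, 0 to 29 higher for twi and 0 to 1 lower for ERR at 10-12 h. Against other control sets 0 were lower for CG10209, 1 for CG33557 and 1 for twi, where 49 were higher. For CG33557 library sizes gave 0 higher and 25 lower, and RLE, DESeq2 and one fit 2 lower. For twi 41 (no filter), 29 (DESeq2), 28 (library sizes) and 1 (adjusted p of 0.05) were higher. For CG15696 8 (RLE), 7 (DESeq2), 5 (library sizes), 0 (one fit) and 0 (other control sets) were higher. Leaving a library out was not run for CG15696.

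The reversed values were ND-13A in caup at 10-12 h (-0.37) and ND-AGGG in caup at 16-18 h (-0.016), both with library sizes alone, and ND-AGGG (-0.34) and UQCR-C2 (0.012) in CG33557 against other control sets.

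Replicate numbers did not pair the libraries: the correlation of same-numbered deviations was -0.48, 0.06 and 0.45 for ERR at its windows, -0.02 and -0.28 for caup, -0.09 for CG10209, 0.19 for CG33557 and -0.05 for twi. With the replicate block 6 members were lower for caup at 16-18 h (12 with crossed numbers) and 4 higher for twi, and no other count moved by over 1.5 times. With crossed numbers ERR at 0-1.5 h kept 0 calls.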

Other observations

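dmrt99B RNAi at 16-18 h gave the highest member median of all RNAi comparisons (1.79 against -0.05 for all genes), with 0 calls by edgeR and 19 higher by DESeq2. It came from RNAi replicate 1, in which the mitochondrial large ribosomal RNA took 35.4% of counts. That RNA took 2.23% in RNAi replicate 2, 1.22 and 1.18% in the controls, and at most 16.8% in any control library. Against the control mean, 19 of 57 members were more than 2-fold higher in replicate 1, with a median exon length of 745 bases, 24 were under 0.5-fold, with a median of 1248 bases, and 14 lay between.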
